A study of Mus musculus with 6 samples.

Results

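The genes described here encode the semaphorins, their plexin and neuropilin receptors, the Slits and their Robo receptors, and netrin with its receptors. They were chosen by name: a list of 43 symbols was looked up among the 27179 genes of the count table, and all 43 were found. Of these, 40 passed the filter on low counts and were tested, and 3 did not pass it. Expression was measured by bulk RNA-seq of fibroblasts sorted from mammary glands of pubertal mice, females of 6 weeks of age, whose strain is FVB/N in the labels and FVB/NJ in the study's methods. The cells were negative for lineage markers and CD24 and positive for Pdgfrα, and were divided by the surface level of CD34 into CD34hi and CD34lo fibroblasts. There were 3 pools of 2 mice, and each pool gave 1 library of either population, so that 3 CD34hi libraries were compared with 3 CD34lo libraries. No animal carried a transgene or received a treatment that the labels name, and a library is the average over 2 animals.

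Guidance molecules were first known for steering growing axons, and the same ligands and receptors act between epithelium, vessels, nerves and stroma in many organs. Class 3 semaphorins are secreted and signal through complexes of a neuropilin, which binds the ligand, and a plexin, whose cytoplasmic part acts on small GTPases. Most other semaphorins are held in the membrane and bind plexins directly. Slits are secreted proteins that bind Robo receptors, and netrins bind Dcc, neogenin or receptors of the Unc5 family. In the mammary gland, Slit-Robo and netrin-neogenin signaling are known for their roles in the architecture of the epithelial ducts.

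Most of the tested guidance genes differed between the populations, and more of them were higher in CD34lo than in CD34hi fibroblasts. The largest estimates in favour of CD34hi were those of Sema3e and Sema3c, which are secreted class 3 semaphorins. Those in favour of CD34lo included Sema7a, Plxnc1, Robo2 and netrin receptors of the Unc5 family. Of the 40 tested genes, 6 were higher in CD34hi fibroblasts, 19 were higher in CD34lo fibroblasts and 15 did not pass an adjusted p of 0.05 (edgeR, quasi-likelihood F-test, Benjamini-Hochberg over the 15219 genes tested). The genes called made up 62.5% of those tested, against 35.6% of all tested genes. Because the list was chosen with earlier results of these data known, the shares describe it and test nothing about guidance genes. Genes higher in CD34hi made up 15.0%, against 16.9% of all genes, and genes higher in CD34lo made up 47.5%, against 18.7%. Among the 25 genes called, 23 changed by more than 2-fold, but the same share was not computed for all genes called. The median log2 fold change, CD34hi against CD34lo, was −0.47 over the 40 genes and −0.0064 over all tested genes. With the mouse pool as a block in the fit, 7 guidance genes were higher in CD34hi and 19 in CD34lo, where 40.5% of all tested genes were called. The 3 libraries of one population did not overlap those of the other for 26 of the 40 genes, against 50.1% of all tested genes.

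**Figure D1:**
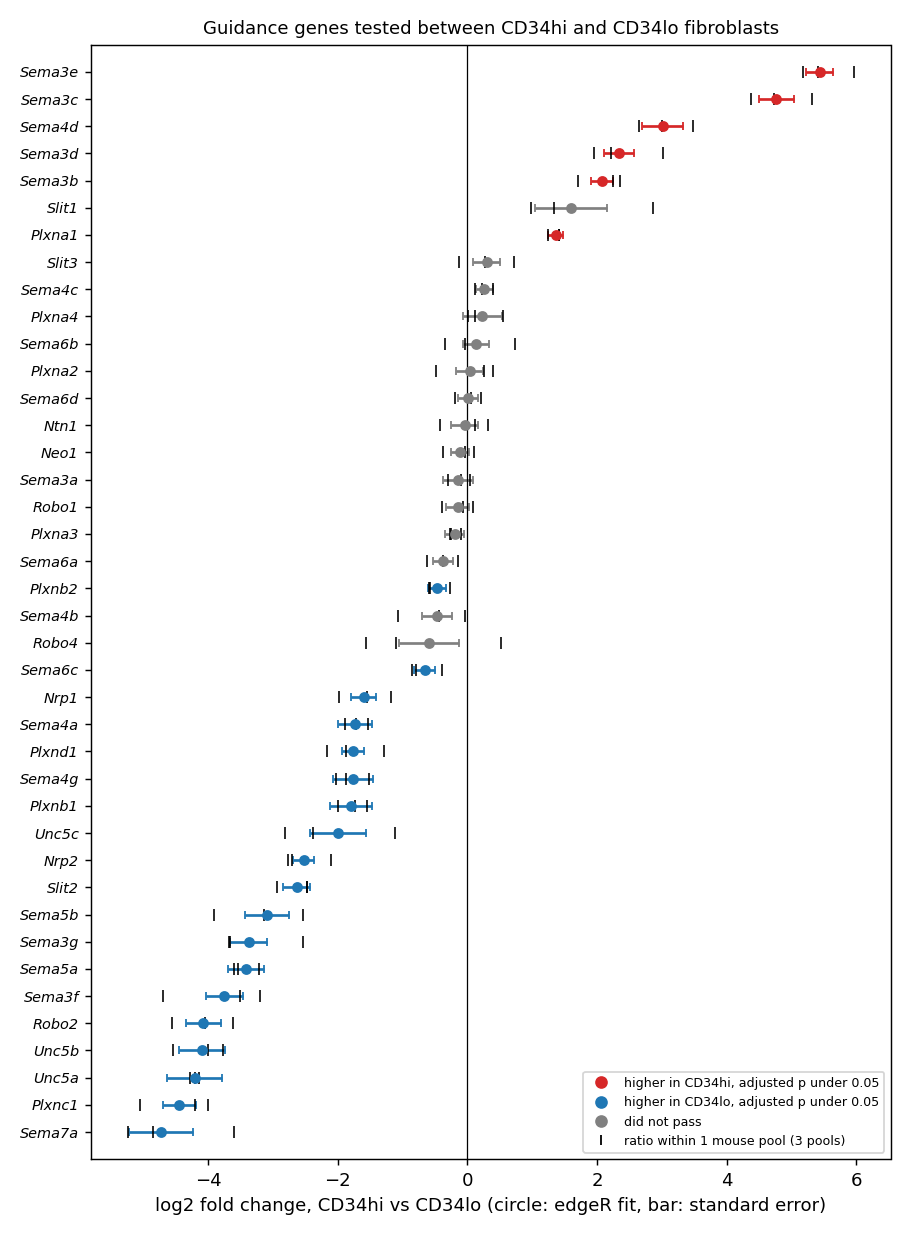
Log2 fold change of the 40 tested guidance genes, CD34hi against CD34lo, with circles for the edgeR estimate, bars for its standard error and ticks for the ratio within each of the 3 mouse pools. Red marks the 6 genes higher in CD34hi, led by Sema3e at 5.44, and blue the 19 genes higher in CD34lo, which reach −4.72 at Sema7a.

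The sort was checked first. Cd34 itself had 2489, 2638 and 2583 CPM (counts scaled by library size, here with TMM) in CD34hi libraries 1 to 3 and 476, 793 and 631 CPM in CD34lo libraries 1 to 3. The populations were separated in every pool, and CD34lo library 2 retained the most Cd34 of its group. Pdgfra was expressed in all 6 libraries, from 637 to 1416 CPM, and was lower in CD34hi (log2 fold change −0.74, SE 0.19, edgeR adjusted p = 0.0148). Cd24a, the gene of the marker used to exclude epithelium, was low in both but higher in CD34hi, at 18.9 against 5.06 CPM (log2 fold change 1.90, SE 0.19, edgeR adjusted p = 0.000103). Libraries held 28764779 to 52402410 counts, so that 3 counts corresponded to 0.0572 to 0.104 CPM. As these are bulk samples, fewer cells expressing a gene and less RNA of that gene per cell cannot be told apart.

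Class 3 semaphorins, the secreted ligands, contained the largest increases in CD34hi fibroblasts. Of 7 genes, 4 were higher in CD34hi, 2 were higher in CD34lo and Sema3a did not pass. Sema3c, a ligand for neuropilin and plexin complexes with a known role in heart and vessel development, had 2266, 2143 and 2661 CPM in CD34hi libraries 1 to 3. In CD34lo libraries 1 to 3 it had 56.7, 104 and 100 CPM, so that the lowest CD34hi library stood far above the highest CD34lo library. The difference was 27.1-fold (log2 fold change 4.76, SE 0.27, edgeR adjusted p = 6.7e-06).

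Sema3e differed from the other class 3 ligands in its receptor use, since it is known to bind plexin D1 without a neuropilin. It had 38.9, 33.7 and 33.8 CPM in CD34hi, and 0.922, 0.539 and 0.932 CPM in CD34lo, where the 3 libraries together held 94 counts. No other guidance gene had a larger estimated fold change, at 43.3-fold (log2 fold change 5.44, SE 0.21, edgeR adjusted p = 1.4e-06).

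Sema3b and Sema3d, secreted ligands of the same class, were higher in CD34hi in 3 of 3 pools. Sema3b had 168, 151 and 150 CPM in CD34hi against 35.5, 46.4 and 29.3 CPM in CD34lo (log2 fold change 2.08, SE 0.17, edgeR adjusted p = 3.8e-05). Sema3d had 168, 154 and 176 CPM in CD34hi against 20.9, 39.7 and 37.9 CPM in CD34lo (log2 fold change 2.34, SE 0.23, edgeR adjusted p = 9.7e-05). The CD34hi libraries lay close together for both genes, and no CD34lo library reached them.

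Sema3f and Sema3g, which are best known as ligands that act through neuropilin-2 and for their expression in vessels, went the other way. Sema3f had 0.559, 1.16 and 1.10 CPM in CD34hi and 14.5, 10.6 and 12.6 CPM in CD34lo, a 13.4-fold difference (log2 fold change −3.75, SE 0.28, edgeR adjusted p = 2.5e-05). Sema3g had 3.33, 3.31 and 3.04 CPM in CD34hi and 42.1, 19.2 and 38.8 CPM in CD34lo (log2 fold change −3.37, SE 0.29, edgeR adjusted p = 4.6e-05). The groups were separate for both, and CD34lo library 2 was the lowest of its group in each. Sema3a, the axon repellent for which the class was first described, had 5.46 to 7.23 CPM in CD34hi and 5.44 to 8.87 CPM in CD34lo. Its libraries overlapped, and the difference did not pass (log2 fold change −0.14, SE 0.23, edgeR adjusted p = 0.677).

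**Figure D2:**
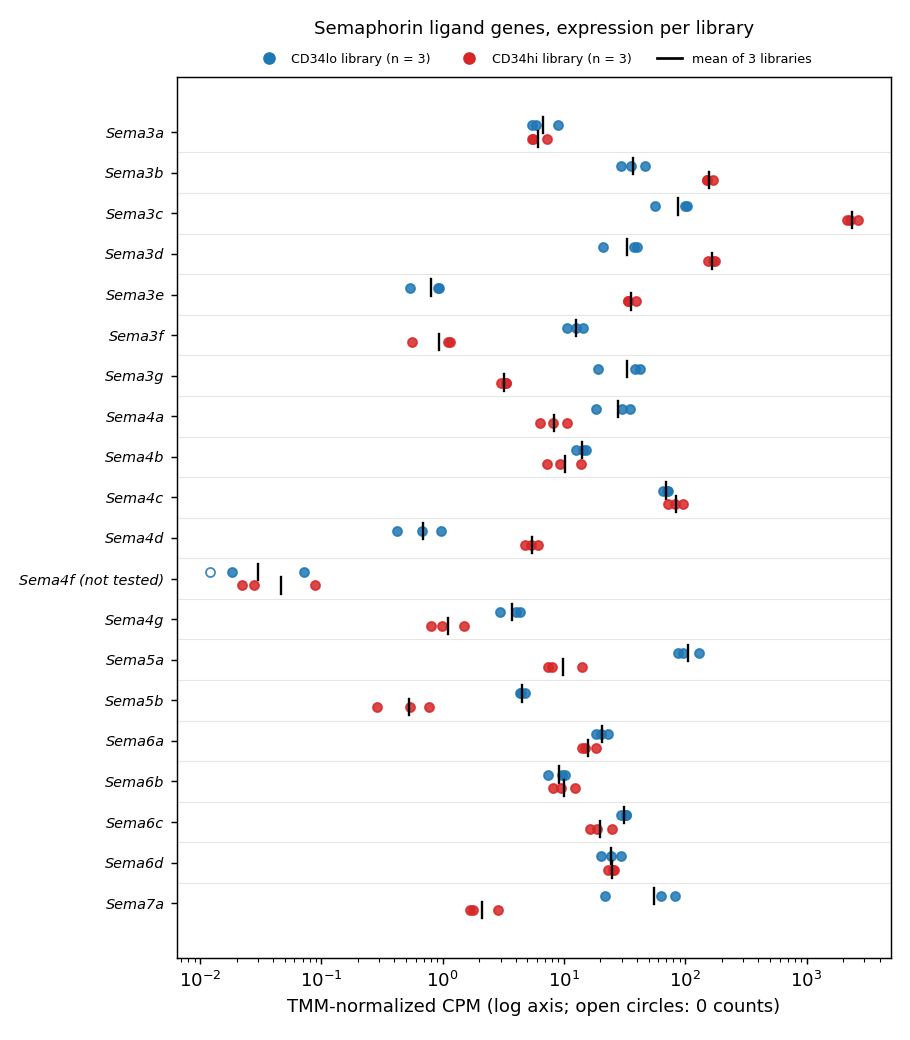
Expression of the 20 semaphorin genes in TMM-normalized CPM on a log axis, with a point for each of the 3 CD34lo (blue) and 3 CD34hi (red) libraries and a bar at their mean; open circles mark libraries with 0 counts. Sema3c stands at 2143 to 2661 CPM in CD34hi and at 56.7 to 104 CPM in CD34lo, and Sema4f was removed by the low-count filter.

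Scaled by gene length, the class 3 genes together gave 507 to 615 FPKM (here CPM divided by the gene length in kilobases) in CD34hi and 41.5 to 50.2 FPKM in CD34lo. Sema3c alone made up 84.8% to 87.4% of this FPKM sum in CD34hi and 27.6% to 42.1% in CD34lo, where Sema3b or Sema3g came next. Across all semaphorins the FPKM sum was 552 to 661 in CD34hi and 119 to 130 in CD34lo. Sema3c was the highest guidance gene of CD34hi fibroblasts at 476 ± 54.6 FPKM (SD, n = 3) and had 17.5 ± 5.30 FPKM (SD, n = 3) in CD34lo.

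**Figure D3:**
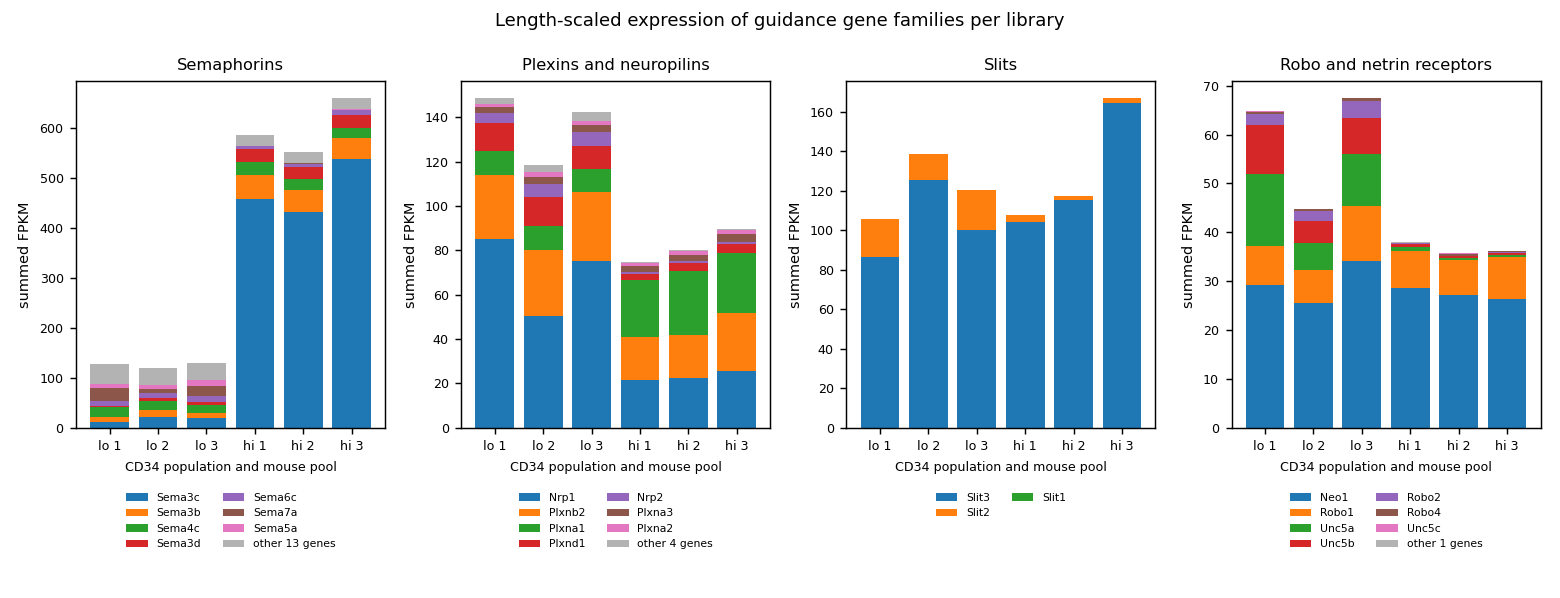
Summed FPKM of semaphorins, of plexins with neuropilins, of Slits, and of Robo and netrin receptors in each library (lo 1 to 3, hi 1 to 3), stacked by gene. Sema3c fills 78.1% to 81.3% of the semaphorin bar in CD34hi libraries, while Slit3 fills most of the Slit bar in all 6 libraries.

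Sema3d, Sema3a, Sema3e and Sema3c lie in this order on chromosome 5, all on the plus strand. Sema3d ends 808 kb before Sema3a, Sema3a ends 422 kb before Sema3e, and Sema3e ends 3318 kb before Sema3c. The gene of these that was not called, Sema3a, thus lies between genes that were higher in CD34hi. The start regions of these genes are shown because 3 of them were higher in CD34hi and Sema3a was not called. They run from 150 bases before to 30 bases after the annotated start (RefSeq, GRCm38.p6), with each CpG in capitals.
Sema3d, chr5:12383016-12383195, plus strand: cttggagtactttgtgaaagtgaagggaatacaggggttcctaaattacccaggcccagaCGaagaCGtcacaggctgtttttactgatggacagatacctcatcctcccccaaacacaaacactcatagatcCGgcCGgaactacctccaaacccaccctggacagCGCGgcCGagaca
Sema3a, chr5:13396634-13396813, plus strand: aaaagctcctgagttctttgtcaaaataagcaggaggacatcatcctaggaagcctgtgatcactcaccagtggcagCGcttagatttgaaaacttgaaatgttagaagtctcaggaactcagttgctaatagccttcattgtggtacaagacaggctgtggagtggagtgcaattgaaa
Sema3e, chr5:14025126-14025305, plus strand: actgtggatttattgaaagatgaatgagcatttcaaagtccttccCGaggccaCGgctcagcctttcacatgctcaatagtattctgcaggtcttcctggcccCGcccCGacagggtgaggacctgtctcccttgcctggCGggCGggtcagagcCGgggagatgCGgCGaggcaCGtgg
Sema3c, chr5:17574666-17574845, plus strand: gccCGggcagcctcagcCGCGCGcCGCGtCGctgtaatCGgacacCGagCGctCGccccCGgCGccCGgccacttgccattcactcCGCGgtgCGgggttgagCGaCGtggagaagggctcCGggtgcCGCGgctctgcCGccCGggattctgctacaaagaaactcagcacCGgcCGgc
Over the 300 bases around the start that the reference table holds, Sema3c had 42 CpG, more than 97.0% of 32851 promoters, whose median was 7. Sema3e had 11, Sema3d had 8 and Sema3a had 2, so that the 3 genes higher in CD34hi ranged from near the median to the upper end. Methylation was not measured in these samples.

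Another pair of class 3 genes with opposite changes lies on chromosome 9. Sema3b and Sema3f are both on the minus strand and 72.3 kb apart, with 4 genes between them, of which 1 was tested. Sema3b was higher in CD34hi (log2 fold change 2.08) and Sema3f in CD34lo (log2 fold change −3.75).

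The semaphorins of classes 4 to 7, held in the membrane by a transmembrane segment or a lipid anchor, were mostly higher in CD34lo fibroblasts or not called. Of 13 genes, 12 were tested, 1 was higher in CD34hi, 6 were higher in CD34lo and 5 did not pass. Their median log2 fold change was −0.56. Sema7a, the lipid-anchored member that binds plexin C1 and integrins, had 2.84, 1.79 and 1.68 CPM in CD34hi and 81.6, 21.6 and 63.2 CPM in CD34lo. CD34lo library 2 had the least Sema7a of its group and still exceeded every CD34hi library. The difference was 26.3-fold (log2 fold change −4.72, SE 0.49, edgeR adjusted p = 0.000131).

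Sema5a, a transmembrane ligand with thrombospondin repeats, had 7.96, 7.45 and 14.0 CPM in CD34hi and 96.6, 86.8 and 131 CPM in CD34lo (log2 fold change −3.41, SE 0.28, edgeR adjusted p = 3.3e-05). All CD34lo libraries were above all CD34hi libraries. Its close relative Sema5b was low in both, with 0.287 to 0.772 CPM in CD34hi and 4.31 to 4.74 CPM in CD34lo (log2 fold change −3.09, SE 0.34, edgeR adjusted p = 0.000182). An unnamed gene on the opposite strand lies within Sema5b and held 12412 counts, against 580 for Sema5b, so that the Sema5b counts are uncertain. How reads were assigned between these genes is not given.

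Among class 4, Sema4d, a ligand of plexin B1 known from immune cells and bone, was the exception in direction. It had 4.74, 6.07 and 5.40 CPM in CD34hi and 0.424, 0.971 and 0.675 CPM in CD34lo (log2 fold change 3.01, SE 0.32, edgeR adjusted p = 0.000136). Sema4a had 6.37 to 10.5 CPM in CD34hi and 18.5 to 34.7 CPM in CD34lo (log2 fold change −1.74, SE 0.26, edgeR adjusted p = 0.00103). Sema4g was lower in level, at 0.805 to 1.50 against 2.95 to 4.31 CPM (log2 fold change −1.76, SE 0.30, edgeR adjusted p = 0.0021). For these 3 class 4 genes the libraries of the populations did not overlap.

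Sema4b and Sema4c did not pass. Sema4c was the most highly expressed class 4 gene, at 71.4 to 95.8 CPM in CD34hi and 65.6 to 72.5 CPM in CD34lo (log2 fold change 0.26, SE 0.13, edgeR adjusted p = 0.156). Sema4b had 7.26 to 13.9 CPM in CD34hi and 12.5 to 15.3 CPM in CD34lo (log2 fold change −0.47, SE 0.23, edgeR adjusted p = 0.150). Both passed when CD34hi library 3 was left out, with edgeR adjusted p = 0.0483 for Sema4c and 0.0130 for Sema4b, and Sema4b also without pool 3 (edgeR adjusted p = 0.0344). Sema4f had 6 counts in the 3 CD34hi libraries and 3 counts in the CD34lo libraries and was not tested.

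Class 6 semaphorins, transmembrane ligands of the A-type plexins, differed by less than 2-fold. Sema6c was the only one of 4 called, with 16.4, 18.6 and 24.7 CPM in CD34hi and 29.5, 32.2 and 32.4 CPM in CD34lo (log2 fold change −0.66, SE 0.16, edgeR adjusted p = 0.0130). Its libraries did not overlap, but the call was lost without pool 1 (edgeR adjusted p = 0.0807), without pool 2 (0.115), and without CD34hi library 1 (0.0608) or 2 (0.0586). Sema6a had 14.1 to 18.4 against 18.3 to 23.0 CPM (log2 fold change −0.38, SE 0.15, edgeR adjusted p = 0.0818) and passed without CD34hi library 3 (edgeR adjusted p = 0.0344). Sema6b had 8.06 to 12.4 against 7.42 to 10.2 CPM and Sema6d 23.1 to 25.9 against 20.0 to 29.7 CPM. Their log2 fold changes of 0.13 (SE 0.20) and 0.01 (SE 0.16) did not pass, and both changed sign under other settings.

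Plexins, the signaling receptors for semaphorins, had a different leading gene in each population. Of 9 plexins, 8 were tested, 1 was higher in CD34hi, 4 were higher in CD34lo and 3 did not pass. The FPKM sum over all plexins was 52.3 to 63.2 in CD34hi and 59.5 to 62.0 in CD34lo, ranges that overlapped. Within that sum, Plxna1 took 42.7% to 50.6% and Plxnb2 34.7% to 41.0% in CD34hi, while Plxnb2 took 47.6% to 51.1% in CD34lo. The lead was narrow in CD34hi library 3, at 42.7% for Plxna1 and 41.0% for Plxnb2.

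Plxna1, a partner of neuropilins in class 3 semaphorin signaling, was the single receptor gene of the list called higher in CD34hi. It had 232, 259 and 244 CPM in CD34hi and 97.8, 97.3 and 91.3 CPM in CD34lo, with little spread in either population (log2 fold change 1.36, SE 0.11, edgeR adjusted p = 3.5e-05). The other A-type plexins did not pass. Plxna2 had 18.2 to 23.9 against 15.2 to 26.0 CPM, Plxna3 had 17.1 to 22.8 against 20.3 to 24.3 CPM and Plxna4 had 1.45 to 2.32 against 1.35 to 2.12 CPM. Their log2 fold changes were 0.03 (SE 0.21), −0.19 (SE 0.15) and 0.23 (SE 0.30), and the libraries of the populations overlapped for all 3. The estimate for Plxna2 turned negative under upper-quartile normalization.

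Plxnc1, the receptor for Sema7a, was low in CD34hi at 0.805, 0.855 and 0.661 CPM and reached 12.9, 15.8 and 21.9 CPM in CD34lo (log2 fold change −4.44, SE 0.25, edgeR adjusted p = 6.7e-06). Both the ligand Sema7a and this receptor were thus higher in CD34lo in 3 of 3 pools. Plxnd1, the receptor for Sema3e, had 19.6, 25.3 and 30.1 CPM in CD34hi and 88.0, 92.8 and 73.2 CPM in CD34lo (log2 fold change −1.76, SE 0.17, edgeR adjusted p = 9.7e-05). Here the ligand was higher in CD34hi and the receptor in CD34lo, again in every pool.

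The B-type plexins are receptors for class 4 semaphorins. Plxnb1, the receptor for Sema4d, had 1.13 to 1.74 CPM in CD34hi and 3.31 to 6.91 CPM in CD34lo (log2 fold change −1.79, SE 0.32, edgeR adjusted p = 0.0025). Its direction was opposite to that of Sema4d. Plxnb2 had 126, 129 and 170 CPM in CD34hi and 189, 193 and 204 CPM in CD34lo (log2 fold change −0.46, SE 0.14, edgeR adjusted p = 0.0317). The populations did not overlap for Plxnb2, yet its call depended on single libraries. It was lost without pool 1 (edgeR adjusted p = 0.20), without pool 2 (0.202), and without any one library except CD34hi library 3, where the adjusted p ranged from 0.0571 to 0.150. Plxnb3 had 8 counts in the CD34hi and 16 in the CD34lo libraries and was not tested. One CD34hi library had 0 counts of it, which allows up to 3 counts, or 0.0658 CPM.

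The neuropilins, which give class 3 semaphorins their binding to plexins and also bind VEGF, were both higher in CD34lo. Nrp1 had 128, 132 and 152 CPM in CD34hi and 503, 300 and 446 CPM in CD34lo (log2 fold change −1.60, SE 0.20, edgeR adjusted p = 0.000333). Nrp2 had 8.38, 7.15 and 7.23 CPM in CD34hi and 35.9, 46.4 and 49.0 CPM in CD34lo (log2 fold change −2.53, SE 0.16, edgeR adjusted p = 9.9e-06). No libraries overlapped for either gene. Nrp1 accounted for 95.4% to 96.7% of the neuropilin FPKM in CD34hi and 89.9% to 95.1% in CD34lo, and it ranked second among all guidance genes of CD34lo fibroblasts at 70.3 ± 17.7 FPKM (SD, n = 3). Both co-receptors thus ran opposite to Sema3b, Sema3c, Sema3d and Sema3e, and in the same direction as Sema3f and Sema3g.

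**Figure D4:**
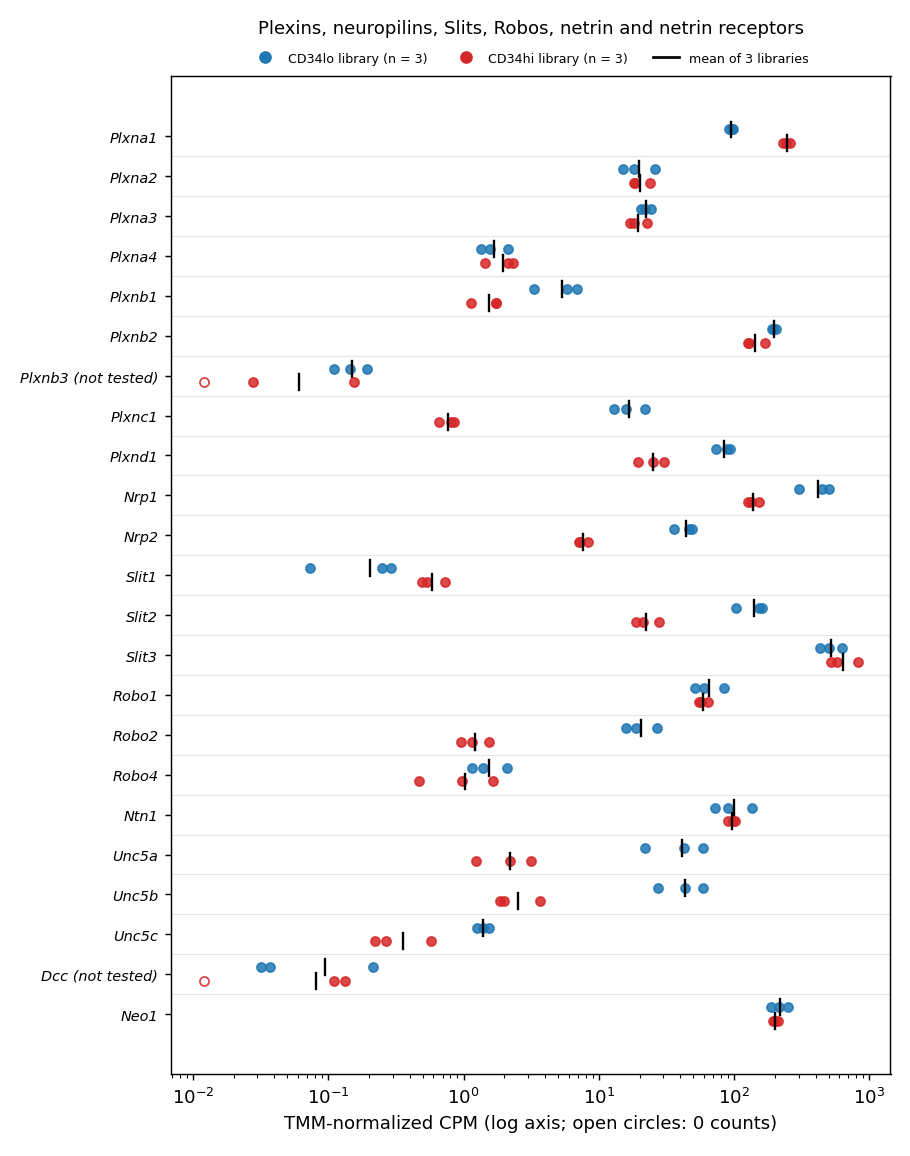
Expression of plexins, neuropilins, Slits, Robos, netrin-1 and netrin receptors in TMM-normalized CPM on a log axis, with a point for each of the 3 CD34lo (blue) and 3 CD34hi (red) libraries and a bar at their mean; open circles mark libraries with 0 counts. Plxna1 is higher in CD34hi at 232 to 259 CPM, whereas Plxnc1, Nrp2, Slit2, Robo2, Unc5a and Unc5b are higher in CD34lo with no overlap.

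Of the Slits, ligands of the Robo receptors, Slit2 was called and Slit3 was not. Slit2 had 27.6, 18.7 and 21.1 CPM in CD34hi and 153, 103 and 161 CPM in CD34lo, a 6.20-fold difference (log2 fold change −2.63, SE 0.21, edgeR adjusted p = 3.3e-05). Slit3 was abundant in every library, with 520, 575 and 821 CPM in CD34hi and 431, 626 and 500 CPM in CD34lo (log2 fold change 0.30, SE 0.21, edgeR adjusted p = 0.302). The populations were separate for Slit2 and overlapped for Slit3. Slit3 made up 96.7% to 98.3% of the Slit FPKM in CD34hi and 81.8% to 90.6% in CD34lo, where Slit2 contributed 9.36% to 18.2%. Slit1 was near the limit of detection, with 75 counts in the 3 CD34hi libraries and 20 in the 3 CD34lo libraries. It was higher in CD34hi in 3 of 3 pools, did not pass in edgeR without the pool block (log2 fold change 1.60, SE 0.55, edgeR adjusted p = 0.0517) and passed in edgeR with it (1.65, edgeR adjusted p = 0.0464). It also passed in limma-voom without the block (log2 fold change 1.80, limma adjusted p = 0.0374).

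The start regions of Slit2 and Slit3 are given in the same format because Slit2 was called and Slit3 was not (RefSeq, GRCm38.p6, CpG in capitals).
Slit2, chr5:47983005-47983184, plus strand: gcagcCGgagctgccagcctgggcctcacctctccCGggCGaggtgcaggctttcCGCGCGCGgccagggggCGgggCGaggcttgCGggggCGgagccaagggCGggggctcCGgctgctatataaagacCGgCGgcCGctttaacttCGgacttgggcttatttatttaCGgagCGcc
Slit3, chr11:35121306-35121485, plus strand: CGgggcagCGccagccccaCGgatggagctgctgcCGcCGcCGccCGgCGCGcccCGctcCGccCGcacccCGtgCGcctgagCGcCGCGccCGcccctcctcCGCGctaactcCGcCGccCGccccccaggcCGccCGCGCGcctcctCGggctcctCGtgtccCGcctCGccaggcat
The letters TATAAA begin 28 bases before the Slit2 start, and among 35 guidance genes with an entry Slit2 was the one that held them on either strand of its 300 bases, against 13.6% of all promoters. The other motifs searched, on both strands, were CCAAT in 8 of the 35 genes (37.4% of all promoters), TGACTCA in 2 (5.20%), CACGTG in 4 (7.15%) and GACCACCCA, a GLI-type site, in 0 (0.253%). Genes with several listed starts were counted once if any start held the letters, whereas the shares are of single promoters. Sema3b, Sema3f, Sema6a, Plxna1, Plxna4, Slit1, Ntn1 and Dcc had no entry.

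Each of the same 2 Slit genes also contains a copy of the microRNA miR-218. Mir218-1 lies in Slit2, with its 5p arm at chr5:48223966-48223986, and Mir218-2 in Slit3, at chr11:35616840-35616860, both in the direction of the host gene. The mature sequences are shown because the main arm is identical from both hosts, with the seed (bases 2 to 8) in capitals (RefSeq, GRCm38.p6).
mmu-miR-218-5p: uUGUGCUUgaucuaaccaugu
mmu-miR-218-1-3p: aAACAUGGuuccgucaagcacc
mmu-miR-218-2-3p: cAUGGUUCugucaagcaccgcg
The 3p arms differ in seed between the hosts. Mature microRNAs are not captured by libraries from polyadenylated RNA, so that no level of miR-218 is given.

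Robo receptors bind Slits, and Robo2 was the member that was called. It had 1.54, 0.966 and 1.15 CPM in CD34hi and 19.0, 15.9 and 27.1 CPM in CD34lo, a 16.8-fold difference (log2 fold change −4.07, SE 0.27, edgeR adjusted p = 1.2e-05). The populations did not overlap, and CD34hi libraries held 35 to 69 counts each. Robo1, which lies 846 kb from Robo2 on chromosome 16 with no other gene of the table between them, had 54.8 to 64.3 CPM in CD34hi and 51.6 to 84.5 CPM in CD34lo (log2 fold change −0.15, SE 0.18, edgeR adjusted p = 0.553). Robo1 made up 92.7% to 95.9% of the Robo FPKM in CD34hi and 74.0% to 74.8% in CD34lo, and Robo2 made up 21.7% to 22.3% in CD34lo. Robo4, the endothelial Robo, was low in both, with 0.469 to 1.66 and 1.15 to 2.09 CPM, and did not pass (log2 fold change −0.59, SE 0.46, edgeR adjusted p = 0.361).

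Netrin-1 did not differ in level beyond its spread, whereas its receptors Unc5a, Unc5b and Unc5c did. Ntn1 had 90.6, 101 and 98.1 CPM in CD34hi and 72.4, 136 and 90.1 CPM in CD34lo (log2 fold change −0.04, SE 0.21, edgeR adjusted p = 0.899). Its CD34hi libraries lay within the range of the CD34lo libraries. Unc5a, a netrin receptor known for repulsion and as a dependence receptor, had 3.17, 1.24 and 2.2 CPM in CD34hi and 58.6, 21.9 and 42.7 CPM in CD34lo (log2 fold change −4.21, SE 0.43, edgeR adjusted p = 0.000118). Unc5b, its relative with known roles in vessels, had 3.69, 1.99 and 1.87 CPM in CD34hi and 58.7, 27.2 and 43.4 CPM in CD34lo (log2 fold change −4.09, SE 0.36, edgeR adjusted p = 5.1e-05). In both genes pool 2 had the lowest CD34lo value, and the ratio within pools was steady, from −4.28 to −4.14 for Unc5a and from −4.54 to −3.77 for Unc5b on the log2 scale.

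Unc5c was much lower, with 0.268, 0.579 and 0.220 CPM in CD34hi and 1.40, 1.26 and 1.54 CPM in CD34lo (log2 fold change −1.99, SE 0.43, edgeR adjusted p = 0.0069). The groups were separate, but the call was lost without pool 1 (edgeR adjusted p = 0.0671) or pool 3 (0.0505). The FPKM sum of the 3 Unc5 genes was 0.713 to 1.46 in CD34hi and 10.3 to 24.9 in CD34lo. Neo1, which encodes neogenin, was the dominant netrin receptor gene at 195 to 211 CPM in CD34hi and 188 to 252 CPM in CD34lo (log2 fold change −0.11, SE 0.14, edgeR adjusted p = 0.553). Dcc had 11 counts in the CD34hi and 9 in the CD34lo libraries and was not tested. Unc5d, which is outside the list, had 28 and 8 counts and was not tested either.

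Ranked by length-scaled level, the guidance genes of the populations were led by different ligands. In CD34hi fibroblasts Sema3c was followed by Slit3 at 128 ± 32.1 and Sema3b at 45.5 ± 2.89 FPKM (SD, n = 3), ranks whose values were separated by more than their SDs. Neo1, Plxna1, Sema3d, Nrp1, Sema4c and Plxnb2 came next, between 21.6 and 27.4 FPKM, and neighbours among these did not differ beyond their SDs. In CD34lo fibroblasts Slit3 was first at 104 ± 19.8 and Nrp1 second, and these neighbours overlapped within their SDs. Within each CD34lo library Slit3 stood above Nrp1, though in library 1 only at 86.2 against 85.0 FPKM. Plxnb2 and Neo1 followed at 29.8 ± 1.17 and 29.6 ± 4.38 FPKM (SD, n = 3), and Sema4c, Sema3c, Slit2, Ntn1 and Sema7a lay between 16.9 and 18.3 FPKM without separation.

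The lower CD34lo library recurred across genes. CD34lo library 2, which had the most Cd34 of its group, was the lowest CD34lo library for 11 of the 19 genes higher in CD34lo. Library 1 was the lowest for 5 and library 3 for 3. The same count was not made over all genes higher in CD34lo, so whether guidance genes differ from these is not known. Without library 2 of the CD34lo group, 6 guidance genes were higher in CD34hi and 18 in CD34lo. Whether the composition of that sorted sample contributed was not tested.

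Further genes of the guidance pathways were taken from 5 lists written from general knowledge, but with earlier results of these data known. Of 103 such genes 93 were tested, 38 were higher in CD34hi, 20 were higher in CD34lo and 35 did not pass. Thus 62.4% were called, against 35.6% of all tested genes. Genes higher in CD34hi made up 40.9%, against 16.9% of all tested genes. Genes higher in CD34lo made up 21.5%, near the 18.7% of all tested genes. Their median log2 fold change was 0.08. Related ligands and receptors outside the families above gave 4 higher in CD34hi and 2 higher in CD34lo of 11 tested (54.5% called). They were led by Ntn4, a basement membrane netrin (log2 fold change 2.81, SE 0.22, edgeR adjusted p = 3.1e-05), and by Flrt1, of the family of Unc5 and latrophilin ligands (−2.67, SE 0.50, edgeR adjusted p = 0.0033). With the pool block 5 and 3 of the 11 were called, where 40.5% of all tested genes were called.

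Co-receptors and partners of plexins, neuropilins and semaphorins gave 8 higher in CD34hi and 5 higher in CD34lo of 18 tested (72.2% called). Kdr, the VEGF receptor that works with neuropilin-1, was higher in CD34hi at 53.1 against 6.05 CPM (log2 fold change 3.14, SE 0.31, edgeR adjusted p = 9.8e-05). Gpc1, a cell surface heparan sulfate proteoglycan that binds Slits, was higher in CD34lo at 57.8 against 5.11 CPM (log2 fold change −3.50, SE 0.31, edgeR adjusted p = 5.5e-05). The direction of Kdr was thus opposite to that of Nrp1.

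Proteases that process semaphorins, Slits or their receptors gave 4 higher in CD34hi and 1 higher in CD34lo of 8 tested (62.5% called). Pcsk6, a proprotein convertase of the furin family, had 526 against 49.7 CPM (log2 fold change 3.41, SE 0.29, edgeR adjusted p = 4.6e-05), and its relative Pcsk5 had 105 against 188 CPM (log2 fold change −0.84, SE 0.13, edgeR adjusted p = 0.0011). Cytoplasmic effectors of semaphorin and plexin signaling gave 13 higher in CD34hi and 5 higher in CD34lo of 30 tested (60% called). These ranged from Rras2, a small GTPase of the R-Ras family on which plexins act, at 129 against 14.0 CPM (log2 fold change 3.20, SE 0.14, edgeR adjusted p = 2.4e-06), to Mical2, an actin-oxidizing enzyme, at 11.8 against 130 CPM (−3.46, SE 0.41, edgeR adjusted p = 0.000264). Effectors of Slit-Robo and netrin signaling gave 9 higher in CD34hi and 7 higher in CD34lo of 26 tested (61.5% called). Srgap1, a GTPase-activating protein that binds Robo, was higher in CD34hi (log2 fold change 1.67, SE 0.18, edgeR adjusted p = 0.000179), and Trim9, a ubiquitin ligase that binds Dcc, was higher in CD34lo at 13.9 against 0.853 CPM (log2 fold change −4.01, SE 0.75, edgeR adjusted p = 0.0033).

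Several guidance genes higher in CD34lo are also known from endothelium, pericytes or Schwann cells, so markers of other cell types were measured in the same libraries. Of 10 blood endothelial markers, Tek was higher in CD34hi at 543 against 35.1 CPM, and Pecam1, Cdh5, Emcn and Erg were higher in CD34lo, at levels of 1.65 to 14.7 CPM there. The genes called made up 50% of this list, against 35.6% of all tested genes. With the pool block 7 of the 10 were higher in CD34lo, where 40.5% of all tested genes were called in either direction. The summed CPM of the list was 486 to 671 in CD34hi and 66.4 to 110 in CD34lo, most of it Tek. Pericyte markers gave 1 higher in CD34hi and 5 higher in CD34lo of 7 tested (85.7% called). Kcnj8 was higher in CD34hi, at 34.7 against 13.3 CPM. Rgs5, Notch3, Cspg4, Mcam and Des were higher in CD34lo, with Notch3 at 4.44 against 43.1 CPM (log2 fold change −3.28, SE 0.31, edgeR adjusted p = 7.6e-05). The summed CPM of the list was 138 to 194 and 161 to 244. Its largest part was Abcc9, which did not pass, at 123 against 106 CPM. Schwann and neural markers gave 1 and 4 of 7 tested (71.4% called), with sums of 13.6 to 14.9 and 24.9 to 29.3 CPM. The part of these cells in Plxnd1, Nrp1, Unc5b, Sema3f, Sema3g and Robo2 was not tested.

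The remaining marker lists varied in direction, and their shares called stand against 35.6% of all tested genes. Fibroblast markers gave 1 higher in CD34hi and 6 higher in CD34lo of 9 (77.8% called). Their sums were 58850 to 77420 and 95030 to 104500 CPM. Mammary epithelial markers gave 1 higher in CD34hi of 10 (10% called), with sums of 43.5 to 52.9 and 34.9 to 45.0 CPM. Keratinocyte markers gave 3 higher in CD34hi of 4 tested (75% called), with sums of 135 to 165 and 6.45 to 11.3 CPM. Krt1 had 0 counts in all libraries. Leukocyte markers gave 1 higher in CD34hi and 2 higher in CD34lo of 5 tested (60% called). Their sums were 17.5 to 20.6 and 8.13 to 13.4 CPM. Most of the CD34hi sum was Cd3e, at 14.9 against 3.77 CPM, whereas Lyz2 and Cd79a were higher in CD34lo. Cd68 and Csf1r did not pass, and Ptprc was removed by the low-count filter, at 17 against 27 counts. Adipocyte markers gave 2 higher in CD34lo of 2 tested, with sums of 1.90 to 2.76 and 4.24 to 6.90 CPM, and of 3 lymphatic markers tested none passed at edgeR adjusted p of 0.05, with sums of 1.27 to 2.36 and 1.77 to 2.80 CPM.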

How the data were processed

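RNA of the 6 libraries was extracted from snap-frozen sorted cells and made into libraries of polyadenylated RNA with a TruSeq protocol. The authors aligned reads to GRCm38/mm10, counted them with Rsubread and deposited raw counts per gene with gene coordinates and lengths; annotation, strand setting and treatment of multimapping reads are not given in the sources used here. Symbols came from a RefSeq gene table (25275 of 27179 genes matched). In R 4.3.3, edgeR 4.0.16 kept 15219 genes (filterByExpr by population), scaled them by TMM (factors 0.967 to 1.04) and tested CD34hi against CD34lo by quasi-likelihood, with Benjamini-Hochberg adjustment over all genes at 0.05. The SE of a gene is its log2 fold change, without sign, over the root of F. CPM and FPKM use TMM-scaled library sizes, and coordinates are those deposited. The floor of 3 counts covers counting error only. Replicates differed beyond sampling noise (chi-square per degree of freedom at least 22.3), and the common coefficient of variation was 19.7% (14.9% with the block). A single-gene exact permutation test of 3 against 3 cannot go below p = 0.10 and was not used.

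Same-numbered libraries came from the same mice, and their deviations from the group means correlated at 0.279, 0.0844 and 0.243 in pools 1 to 3. The study's methods name no pool term, so the block was an alternative, beside limma-voom (limma 3.58.1), DESeq2 1.42.0, other normalizations and filters, and leaving out each pool or library. All 43 guidance genes are named; of the other lists, the gene with the largest change on each side, the sorting genes and genes a result turns on. Members and lists were chosen with earlier results of these data known.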

Additional observations from a re-analysis of the deposited data

How the results depend on the processing

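Of 679 values of the 40 guidance genes under 17 alternatives, 633 kept direction and side of the threshold, 13 lost it, 8 gained it and 25 changed sign. Of the 25 genes called, 22 passed in every alternative run. Sema6c passed in 13, Plxnb2 in 10 and Unc5c in 15 of 17, and each lost its call only when a pool or library was left out. Of the 15 not called, Sema4b, Sema4c, Sema6a and Slit1 passed in some and 11 in none. Across alternatives 6 to 7 guidance genes were higher in CD34hi and 16 to 21 in CD34lo (21 without CD34hi library 3, 16 without pool 1). With the pool as a replicate block these were 7 and 19, and Slit1 was the single guidance gene whose edgeR call changed (log2 fold change 1.65). In limma-voom Slit1 passed without the block (1.80) and with it (1.60), and Sema6a passed with it (−0.39).

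Signs changed only for genes that did not pass. Ntn1 had a log2 fold change of 0.0016 in limma-voom, 0.0071 with the block in edgeR and 0.0062 with the block in limma-voom. Upper-quartile normalization gave −0.045 for Sema6d and −0.018 for Plxna2, and a minimum of 10 counts in every library gave −0.0064 for Sema6d. Leaving out a pool or library gave −0.28 to 0.11 for Sema3a, −0.18 to 0.35 for Sema6b, −0.097 to 0.16 for Sema6d, −0.16 to 0.34 for Plxna2, −0.30 to 0.081 for Robo1, −0.22 to 0.029 for Neo1 and −0.20 to 0.25 for Ntn1. The cause was not tested. Over all genes, leaving out a pool or library gave 1608 to 2456 genes higher in CD34hi and 1860 to 2780 in CD34lo, with fewer samples in each fit. Upper-quartile normalization moved the all-gene median (log2 scale) from −0.0064 to −0.059. Slit1 had no value under the minimum of 10 counts. Sema4f, Plxnb3 and Dcc were removed by the main filter on low counts, and Slit1 and Unc5c rest on few counts.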
